A study of Homo sapiens with 11 samples.

Results

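The genes described are 9 genes of the B-cell lineage, CD79A, CD79B, MS4A1, BLNK, EBF1, PAX5, CD72, IGLL1 and VPREB1, in 11 established cell lines of T-cell acute lymphoblastic leukemia (T-ALL). They were chosen by name from what is known of B-cells, with earlier results of these data known. They are 9 of the 19775 genes that had a probe set with a single gene symbol. Together the 9 genes have 19 probe sets, and a gene is represented by the one whose mean over all lines is highest. RNA of each line was measured on 1 HG U133 Plus 2.0 array, so no line has an error of its own. By its label a line was NKL-positive (LOUCY, PEER, CCRF-CEM, HPB-ALL, ALL-SIL and JURKAT) or NKL-negative (SUP-T1, CML-T1, MOLT-16, MOLT-14 and MOLT-4), which refers to the activity of homeobox genes of the NKL subclass. No treatment was named for any of the arrays. A line is the outgrowth of 1 leukemia, the lines of a group differ in their origin and mutations, and LOUCY is widely used as a model of immature T-ALL.

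B-cells are recognized by a receptor made of immunoglobulin and the signal chains CD79A and CD79B, which pass the signal through kinases to the adaptor BLNK. In B-cell precursors, before a light chain gene has been rearranged, the proteins of VPREB1 and IGLL1 form a surrogate light chain that pairs with the heavy chain in the pre-B-cell receptor. EBF1 and PAX5 are the transcription factors that specify and then fix the B-cell fate, and MS4A1 (CD20) and CD72 are membrane proteins of B-cells. Normal T-cells carry a receptor with CD3 chains in place of CD79A and CD79B.

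The lines carried the RNA of their labelled lineage. Of the 18 T-lineage genes listed, 16 were measured and 14 lay above the median of the array in all 11 lines, with CD3D between 12.64 and 13.44 on the log2 scale. In contrast, 7 of 11 myeloid genes lay above the array median in no line. Array medians ran from 4.63 to 4.78 and lower quartiles from 3.45 to 3.60, and a value near the lower quartile cannot be told from background here. The poly-A control probe sets, which read bacterial RNA added before labelling, averaged 5.65 to 8.76 in 8 lines and 2.99 to 3.12 in MOLT-16, HPB-ALL and CML-T1, and results that move with these 3 lines are given with and without them. For ACTB, the 3' control probe set exceeded the 5' one by 0.17 in LOUCY to 0.94 in HPB-ALL among NKL-positive lines. Among NKL-negative lines this difference, a measure of RNA quality, ran from 0.43 in MOLT-14 to 1.17 in MOLT-4. Its part in the line values and in the differences between the NKL groups was not tested. A value is a mean over all cells of a culture, so that few cells with much RNA and many cells with little RNA cannot be told apart.

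To describe where the B-lineage genes were high, a gene was said to stand out in a line if its log2 value exceeded the array median and also exceeded the median over the other 10 lines by at least 2. This description has no test, and the 9 genes were chosen with earlier results of these data known. By it, 7 of the 9 genes stood out in 1 line or more, against 11.5% of all 19775 genes. They made 13 of 99 pairs of gene and line, or 13.1%, against 1.88% over all genes. LOUCY held 5 of these pairs, CML-T1 held 3, HPB-ALL and PEER held 2 each and CCRF-CEM held 1. The corresponding shares of all genes were 2.46% in LOUCY, 3.34% in CML-T1, 2.57% in HPB-ALL, 1.56% in PEER and 1.62% in CCRF-CEM. None of the 9 genes stood out in ALL-SIL and MOLT-4 (0.986% of all genes in each), SUP-T1 (1.41%), MOLT-14 (1.46%), JURKAT (1.99%) and MOLT-16 (2.31%). Of the pairs that did, CD79B in PEER was nearest to the threshold, 2.30 above the median of the other lines. Just outside it were EBF1 in JURKAT, CD79B in CCRF-CEM and VPREB1 in MOLT-4, all at 1.79.

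**Figure D1:**
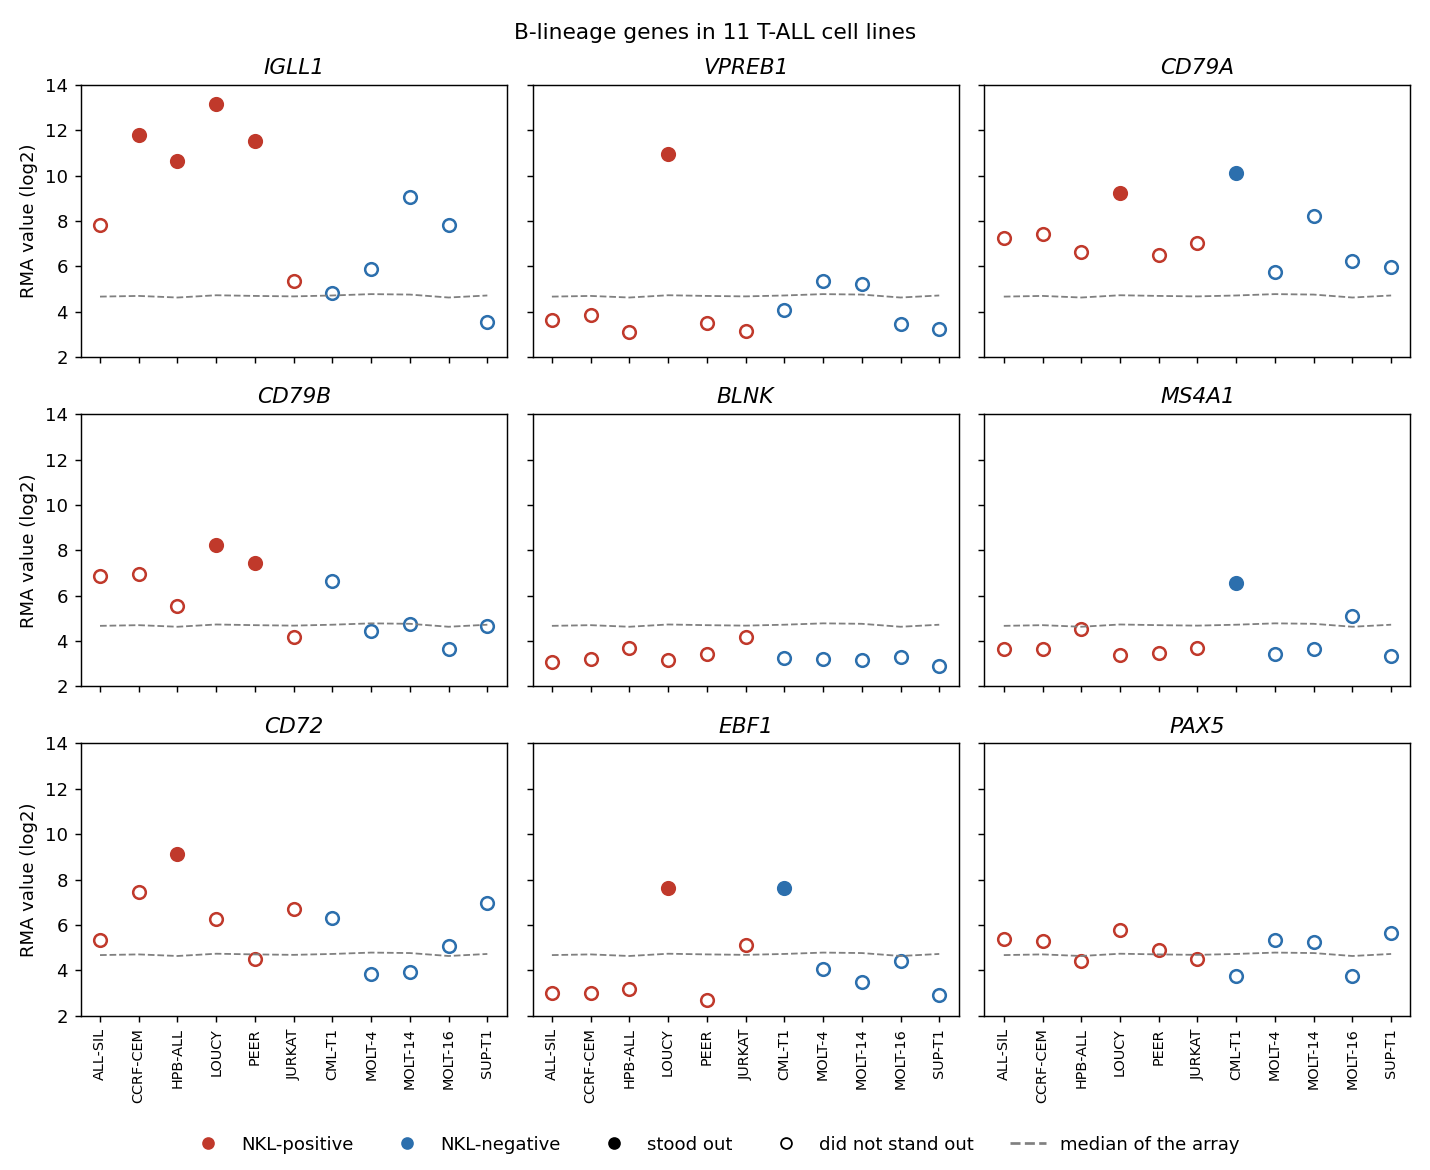
RMA values (log2) of the 9 B-lineage genes in each of the 11 lines, 1 array per line, with NKL-positive lines in red and NKL-negative lines in blue. Filled points stood out (above the array median, drawn as a dashed line, and at least 2 above the median over the other 10 lines), as in LOUCY for IGLL1, VPREB1, CD79A, CD79B and EBF1.

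The surrogate light chain genes differed in how many lines carried them. IGLL1 read 13.17 in LOUCY, 11.81 in CCRF-CEM, 11.53 in PEER, 10.65 in HPB-ALL, 7.81 in ALL-SIL and 5.37 in JURKAT among the NKL-positive lines. In the NKL-negative lines it read 9.07 in MOLT-14, 7.82 in MOLT-16, 5.90 in MOLT-4, 4.84 in CML-T1 and 3.55 in SUP-T1. Thus IGLL1 spanned 9.62 log2 units, stood out in 4 lines and lay above the array median in all lines except SUP-T1. VPREB1, whose protein is the partner of that of IGLL1, read 10.95 in LOUCY, 7.36 above the median of the other lines. In the other NKL-positive lines it read 3.66 in ALL-SIL, 3.85 in CCRF-CEM, 3.11 in HPB-ALL, 3.52 in PEER and 3.16 in JURKAT, and in the NKL-negative lines 4.07 in CML-T1, 5.38 in MOLT-4, 5.23 in MOLT-14, 3.46 in MOLT-16 and 3.23 in SUP-T1. LOUCY was therefore the only line in which both genes stood out. The correlation of IGLL1 with VPREB1 over the 11 lines was r = 0.46, and over the 10 lines without LOUCY it was r = -0.04. VPREB3, a related gene named after its values were seen, stayed between 3.62 and 4.59 in all lines.

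Both surrogate light chain genes, and CD79A, are known from B-cell precursors as targets of EBF1, so the 250 bases before their RefSeq start sites (GRCh38.p14) are shown to set them against the lines in which EBF1 was high. IGLL1 lies at chr22:23580291-23580540 on the minus strand, VPREB1 at chr22:22244536-22244785 on the plus strand and CD79A at chr19:41877029-41877278 on the plus strand. Capitals mark CCCNNGGG, the core of an EBF site, which reads the same on both strands.
IGLL1: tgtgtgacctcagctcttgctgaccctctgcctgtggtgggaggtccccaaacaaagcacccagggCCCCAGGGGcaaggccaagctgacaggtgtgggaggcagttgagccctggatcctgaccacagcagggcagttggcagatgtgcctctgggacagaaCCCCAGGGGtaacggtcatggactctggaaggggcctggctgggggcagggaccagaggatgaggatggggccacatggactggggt
VPREB1: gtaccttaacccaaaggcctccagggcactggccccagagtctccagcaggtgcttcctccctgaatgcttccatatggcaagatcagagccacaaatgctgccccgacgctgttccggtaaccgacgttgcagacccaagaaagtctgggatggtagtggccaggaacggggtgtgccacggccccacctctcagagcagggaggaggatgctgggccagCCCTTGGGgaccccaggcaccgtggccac
CD79A: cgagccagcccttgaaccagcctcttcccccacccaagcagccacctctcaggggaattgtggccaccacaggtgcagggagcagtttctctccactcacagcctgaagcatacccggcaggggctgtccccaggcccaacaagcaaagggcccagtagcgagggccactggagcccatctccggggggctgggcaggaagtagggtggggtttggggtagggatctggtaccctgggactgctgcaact
The motif had 4 matches before IGLL1, which overlap in pairs from bases -184 and -183 and from bases -87 and -86, and 1 match before VPREB1 from base -29. It had 0 matches before CD79A and also 0 before BLNK, EBF1, PAX5 and CD72. The search found only this exact pattern, so 0 matches do not show that a window lacks an EBF site. Of 35116 RefSeq windows of this length, 17.1% held CCCNNGGG. The E-box CANNTG, bound by factors such as TCF3 and also the same on both strands, was found 5 times before IGLL1, 3 times before VPREB1 and 1 time before CD79A, and 61.8% of windows held it. It overlapped no CCCNNGGG match in these 3 windows. Windows for 7 of the 9 genes were found, and those of CD79B and MS4A1 were not.

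EBF1 itself stood out in LOUCY and CML-T1, with the value 7.63 in both. JURKAT followed with 5.11, 1.79 above the median of the other lines. The other NKL-positive lines read 2.98 in ALL-SIL, 3.02 in CCRF-CEM, 3.16 in HPB-ALL and 2.69 in PEER, and the other NKL-negative lines 4.04 in MOLT-4, 3.49 in MOLT-14, 4.42 in MOLT-16 and 2.92 in SUP-T1. Thus 1 line of each NKL group carried EBF1 far above the rest, and the gene lay below the lower quartile of the array in 6 lines. Another 2 probe sets of EBF1 followed it over the lines with r = 0.98 and r = 0.97, while the last one reached only 3.91, with r = 0.84. IGLL1 stood out in 4 lines, of which EBF1 stood out in LOUCY alone, whereas in CML-T1 IGLL1 read 4.84. PAX5, which acts after EBF1 in B-cell precursors, stood out in no line and spanned 2.04 log2 units. It read 5.77 in LOUCY, 5.38 in ALL-SIL, 5.31 in CCRF-CEM, 4.89 in PEER, 4.49 in JURKAT and 4.43 in HPB-ALL. In the NKL-negative lines it read 5.66 in SUP-T1, 5.33 in MOLT-4, 5.23 in MOLT-14, 3.76 in MOLT-16 and 3.73 in CML-T1, so that CML-T1 combined a top value of EBF1 with the lowest value of PAX5. The second probe set of PAX5 agreed only in part, with r = 0.60 and its highest value, 5.54, in MOLT-4.

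The signal chains of the B-cell receptor did not move together in all lines. CD79A lay above the array median in all 11 lines. Its values were 10.12 in CML-T1, 8.22 in MOLT-14, 6.26 in MOLT-16, 5.99 in SUP-T1 and 5.77 in MOLT-4 among the NKL-negative lines. Among the NKL-positive lines they were 9.25 in LOUCY, 7.45 in CCRF-CEM, 7.27 in ALL-SIL, 7.04 in JURKAT, 6.65 in HPB-ALL and 6.50 in PEER. CD79A thus stood out in CML-T1 and LOUCY, the same lines as EBF1. The correlation of CD79A with EBF1 over 11 lines was r = 0.76, with a rank correlation of 0.45. Without LOUCY it was r = 0.68, which still holds CML-T1, where both genes stood out. The correlation without both lines was not computed. The second probe set of CD79A followed the first with r = 0.96. CD79B read 8.25 in LOUCY, 7.46 in PEER, 6.95 in CCRF-CEM, 6.88 in ALL-SIL, 5.56 in HPB-ALL and 4.19 in JURKAT. In the NKL-negative lines it read 6.64 in CML-T1, 4.76 in MOLT-14, 4.67 in SUP-T1, 4.43 in MOLT-4 and 3.64 in MOLT-16. LOUCY was the only line in which both chains stood out, and in PEER CD79B stood out while CD79A was below its median over the lines, 7.04. The probe sets of CD79B disagreed. The other 2 stayed between 3.04 and 4.91 and followed the first with r = -0.20 and r = -0.07, so that all statements on CD79B rest on 1 probe set. BLNK, the adaptor below these chains, lay above the array median in no line and below the lower quartile in 9, with 4.19 in JURKAT as its highest value and 2.88 in SUP-T1 as its lowest.

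The surface genes MS4A1 and CD72 had different top lines. MS4A1 stood out in CML-T1 with 6.54. The next values were 5.09 in MOLT-16 and 4.54 in HPB-ALL, and the remaining 8 lines lay between 3.34 in SUP-T1 and 3.71 in JURKAT. All 4 probe sets of MS4A1 had their highest value in CML-T1, at 6.54, 6.50, 6.75 and 3.85. CML-T1, MOLT-16 and HPB-ALL are the lines in which the poly-A controls read at background. For MS4A1 these 3 lines lay above the other 8 without overlap, as did 3.09% of all genes. For PAX5 they lay below the other 8 without overlap (3.73 to 4.43 against 4.49 to 5.77), as did 9.29% of all genes, which makes 12.4% without overlap in either direction. Both separations hold only for the probe set that represents the gene. In every other probe set of MS4A1 and PAX5 these sets of lines overlapped. Examples are HPB-ALL at 3.71 against ALL-SIL at 3.85 for MS4A1 and MOLT-16 at 3.70 against MOLT-14 at 3.49 for PAX5. The other 7 B-lineage genes overlapped between these sets of lines. Over 11 lines MS4A1 and PAX5 ran against each other with r = -0.86, and the part of the controls, or of what differed with them, in this relation was not tested. CD72, a coreceptor that dampens the B-cell receptor signal, read 9.13 in HPB-ALL, where it stood out, 7.45 in CCRF-CEM, 6.69 in JURKAT, 6.25 in LOUCY, 5.35 in ALL-SIL and 4.51 in PEER. In the NKL-negative lines it read 6.95 in SUP-T1, 6.31 in CML-T1, 5.05 in MOLT-16, 3.92 in MOLT-14 and 3.82 in MOLT-4. CD72 was thus lowest in MOLT-4 and MOLT-14, lines in which VPREB1 had its next highest values after LOUCY.

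**Figure D2:**
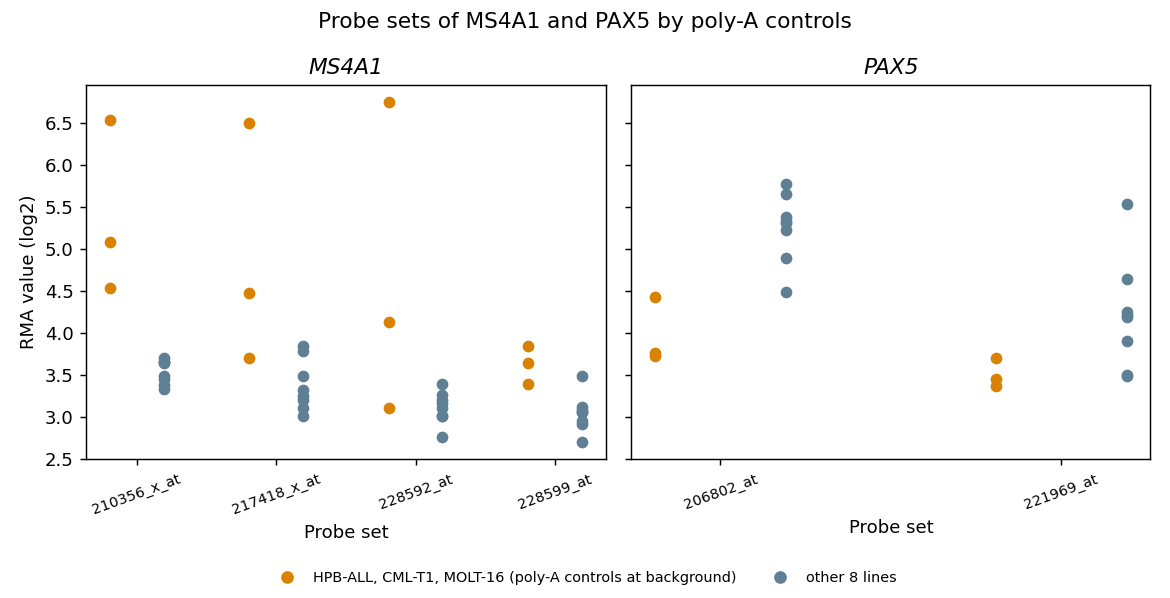
RMA values (log2) of all 4 probe sets of MS4A1 and both probe sets of PAX5, with MOLT-16, HPB-ALL and CML-T1, whose poly-A controls read at background, in orange and the other 8 lines in grey. In the leftmost probe set of each gene, which represents it in the text, the orange points lie above the grey ones for MS4A1 (4.54 to 6.54 against 3.34 to 3.71) and below them for PAX5. In the other probe sets of both genes the orange and grey points overlap.

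Described by line, LOUCY and CML-T1 held different sets of genes beside the shared EBF1 and CD79A. In LOUCY also IGLL1, VPREB1 and CD79B stood out, while IGLL1 in CML-T1 differed from the median of the other lines by -3.61. In CML-T1 also MS4A1 stood out, which read 3.38 in LOUCY. Among 18 measured partners of B-cell receptor signalling, 5 stood out in LOUCY and 0 in CML-T1. The shares of all genes, also for the counts below, were 2.46% in LOUCY, 3.34% in CML-T1 and 2.57% in HPB-ALL. The count of 0 in CML-T1 is thus near its share. The 5 partners in LOUCY were the kinases SYK at 8.94, LYN at 9.88 and BTK at 6.94, the phospholipase PLCG2 at 8.67 and the tetraspanin CD37 at 9.01. LYN and CD37 also stood out in MOLT-16, at 9.09 and 9.05, and SYK stood out in JURKAT at 6.59 and in MOLT-16 at 6.05. For BTK and PLCG2 LOUCY was the only line to stand out, and the next values were 5.48 in ALL-SIL and 7.69 in MOLT-16. Of 19 listed transcription factors 4 stood out in LOUCY, namely MEF2C at 10.57, ERG at 9.23, SPI1 at 6.22 and FOXO1 at 6.54, and 1 in CML-T1, namely BACH2 at 10.09, a repressor of plasma cell fate. Of these, SPI1 alone stood out in no other line. ERG also stood out in PEER at 9.46, MOLT-14 at 8.62, MOLT-4 at 8.55 and CCRF-CEM at 8.32, and MEF2C in MOLT-16 at 7.69 and CCRF-CEM at 5.74. FOXO1 was higher in JURKAT, at 6.81, and BACH2 also stood out in MOLT-16 at 9.78. HPB-ALL, where CD72 stood out, also held 4 of the factors, SPIB at 7.44, IKZF3 at 9.67, TCF4 at 9.17 and IRF8 at 8.19, the last of which was higher in SUP-T1 at 9.09. POU2AF1, a coactivator of immunoglobulin genes, stood out in SUP-T1 at 11.07 and in ALL-SIL at 9.14, lines in which none of the 9 genes did.

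Of 9 immunoglobulin genes measured, 3 stood out in LOUCY, which were IGHM (mu heavy chain) at 10.77, IGLC1 at 9.38 and IGLL3P at 10.48. For this and the list counts below, the shares of all genes were 2.46% in LOUCY and 3.34% in CML-T1. IGLC1 and IGLL3P also stood out in PEER, at 7.99 and 8.80, and IGLL3P in CCRF-CEM at 8.88. Their probe sets may bind several transcripts, so both are uncertain as measures of genes separate from IGLL1. IGHM lay between 3.45 in CML-T1 and 6.77 in HPB-ALL in the other lines. The constant region genes IGHG1, IGHA1 and IGKC stayed at or below 5.97 in all lines, and JCHAIN, a gene of plasma cells, at or below 3.31. Of 20 other B-cell markers, CD9 alone stood out in LOUCY, at 7.27, and CD9, CD24 and STAP1 in CML-T1, at 8.62, 6.10 and 8.75. STAP1, an adaptor of B-cell receptor signalling, also stood out in MOLT-16 at 8.25, and CD24 in MOLT-14 at 5.96. CD9 was highest in JURKAT, at 8.87, and also stood out in SUP-T1 at 8.21. Of the 20 markers, 6 stood out in 1 line or more, against 11.5% of all genes, and 3 lay above the array median in no line. Among the 6 was CD27, a marker of memory B-cells that T-cells also carry, in CCRF-CEM at 8.27 and MOLT-16 at 8.13. IGHG1, IGHA1 and IGKC were named after their values were seen. CR2 (CD21) stood out in 5 lines, at 11.51 in MOLT-14, 11.06 in HPB-ALL, 8.53 in SUP-T1, 7.99 in MOLT-4 and 6.89 in CCRF-CEM and read 3.06 in LOUCY. Of the 8 genes of receptor gene rearrangement, 0 stood out in LOUCY, where RAG1 read 3.73, RAG2 2.74 and DNTT 4.31, while in CML-T1 RAG1 at 8.06 and RAG2 at 7.62 did. Genes of other lineages stood out in these lines too, with LYZ at 5.48 in LOUCY and 5.21 in CML-T1 as 1 of 11 myeloid genes, and PRF1 at 9.74 and 10.20 as 1 of 9 NK-cell genes. CD3D had the value 12.64 in both lines, its lowest of the 11 lines. The part of these other genes in the B-lineage values was not tested.

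**Figure D3:**
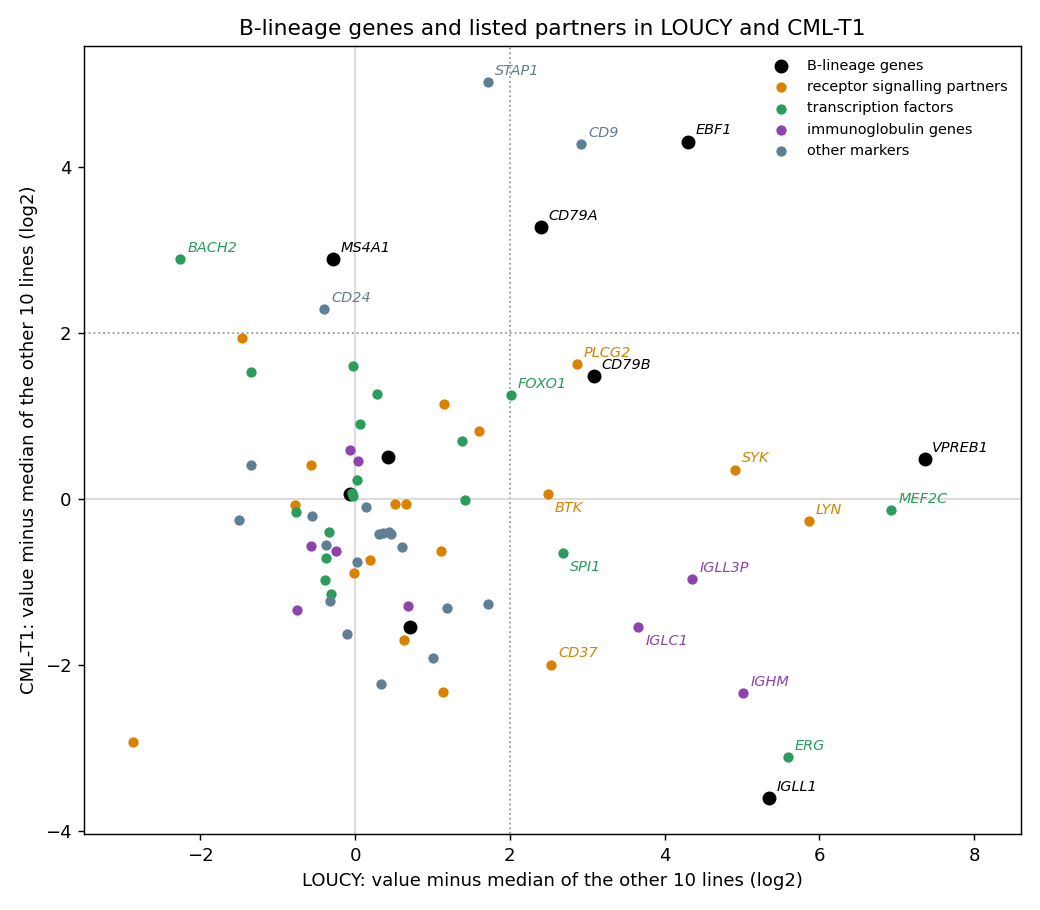
Difference (log2) between the value of a gene and the median of the other 10 lines in LOUCY (horizontal) and CML-T1 (vertical) for the 9 B-lineage genes in black and for 4 lists of related genes in colour. Genes that stood out in either line are named and dotted lines mark a difference of 2. EBF1, CD79A and CD9 lie beyond both dotted lines.

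The study set 5 NKL-positive lines, without JURKAT, against the 5 NKL-negative lines to find genes that go with NKL homeobox activity. In limma with Benjamini-Hochberg adjustment over 54613 probe sets, 0 of the 9 B-lineage genes passed an adjusted p of 0.05, as did 0.00916% of all probe sets. At an unadjusted p under 0.05, 2 of the 9 differed, IGLL1 and CD79B, both higher in NKL-positive lines, against 4.9% of probe sets in either direction, 2.52% higher and 2.38% lower. Of the 9 genes 7 had a mean difference above 0, with a median of 0.41, against 49.8% of all genes and a median of -0.002. The values of both groups overlapped for all 9 genes, whereas 0.379% of all genes were higher and 0.526% lower without overlap, 0.905% in all.

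For IGLL1, the 5 NKL-positive lines averaged 10.99 ± 1.997 (SD, n = 5) and the 5 NKL-negative lines 6.24 ± 2.23 (SD, n = 5), and the groups overlapped through ALL-SIL at 7.81 against MOLT-14 at 9.07 and MOLT-16 at 7.82. The 95% interval of the difference from limma ran from 2.17 to 7.35, with an adjusted p of 0.738. JURKAT, at 5.37, lay below the mean of the NKL-negative lines, and with JURKAT included the difference was 3.82. Among the 3 lines with poly-A controls at background, IGLL1 was 4.32 higher in HPB-ALL than the mean of CML-T1 and MOLT-16. For CD79B the means were 7.02 ± 0.98 (SD, n = 5) and 4.83 ± 1.10 (SD, n = 5). The limma difference was 2.19 (SE 0.59, adjusted p = 0.808), and the overlap consisted of HPB-ALL at 5.56 against CML-T1 at 6.64. In the 4 against 3 lines with poly-A controls the limma difference of CD79B was 2.77 with an adjusted p of 0.170. JURKAT, which has these controls and was left out, read 4.19, and among the 3 lines without them CD79B was 0.42 higher in HPB-ALL than the mean of the others. The probe sets of CD79B not used for the gene gave limma differences of -0.03 (adjusted p = 0.998) and -0.25 (adjusted p = 0.983), so that the group difference was seen by 1 probe set of 3.

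The other 7 genes had differences between -0.67 for MS4A1 and 1.33 for CD72, with limma adjusted p of at least 0.981, and their 95% intervals included 0. Without CML-T1 the difference of MS4A1 was -0.14, and without HPB-ALL that of CD72 was 0.68. For EBF1 the interval ran from -3.02 to 1.81, and for CD79A from -1.74 to 2.04, as 1 high line lay in each group. The CD79A difference was 0.15, and 0.96 in the 4 against 3 lines with poly-A controls. The interval of VPREB1 ran from -2.26 to 3.75 and its difference of 0.74 turned to -0.74 without LOUCY. The narrowest interval was that of BLNK, from -0.25 to 0.55. Among the 116 measured genes of the other lists 0 passed the adjusted threshold. At an unadjusted limma p under 0.05 there were 3 of 18 receptor signalling partners, 3 of 9 immunoglobulin genes, 2 of 20 other B-cell markers, 1 of 8 rearrangement genes (XRCC6), 1 of 11 myeloid genes (CD14) and 0 of the 19 transcription factors. None was found among 16 T-lineage, 9 NK-cell and 6 erythroid genes, and over all probe sets the share was 4.9%. The median differences were 0.14 for the partners, 0.35 for the immunoglobulin genes, 0.02 for the other markers, 0.16 for the transcription factors and 0.38 for the rearrangement genes. They were 0.03 for the T-lineage, -0.03 for the myeloid, -0.24 for the NK-cell and 0.10 for the erythroid genes. The 3 immunoglobulin genes, all higher in NKL-positive lines, were IGLL3P with a difference of 2.75 (limma adjusted p = 0.677), IGHM with 2.18 (adjusted p = 0.981) and IGLC1 with 2.08 (adjusted p = 0.837). IGLL3P and IGLC1 followed IGLL1 over the 11 lines, each with r = 0.91, and are uncertain as measures of separate genes. Without LOUCY the difference of IGHM was 1.28, and with the mean over probe sets the difference was 0.84 for IGHM and 0.54 for IGLC1. Of the partners, DAPP1, an adaptor, was lower with -1.67 (limma adjusted p = 0.738) and with -0.85 for the mean over probe sets, and CD81, a tetraspanin, and PTPN6, a phosphatase, were higher with 1.32 (adjusted p = 0.837) and 1.70 (adjusted p = 0.970). Of the other markers, MME (CD10) was higher with 1.74 and CD24 lower with -1.21 (limma adjusted p = 0.981 for both).

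**Figure D4:**
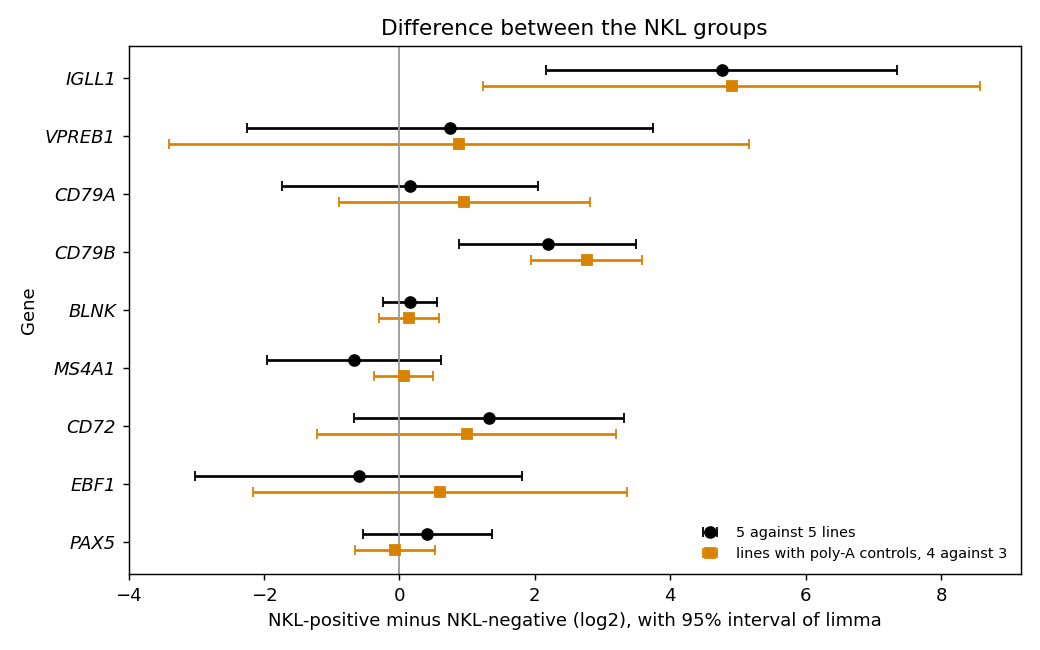
Difference of the mean RMA values (log2) between NKL-positive and NKL-negative lines for the 9 B-lineage genes, with the 95% interval from limma, for 5 against 5 lines (black circles) and for the 4 against 3 lines with poly-A controls (orange squares). The intervals of IGLL1 and CD79B lie above 0 in both, and 0 of the 9 genes passed the adjusted threshold.

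Of 7180 genes that spanned at least 2 log2 units, the ones most like IGLL1 over the 11 lines were IGLL3P (r = 0.91), IGLC1 (r = 0.91) and GUSBP11 (r = 0.91), all genes of the lambda light chain region or its surroundings on chromosome 22. GUSBP11 is 3 places from IGLL1 in the RefSeq order, and DRICH1, which lies between them, had r = -0.04. IGLL3P read 10.48 in LOUCY, 8.88 in CCRF-CEM, 8.80 in PEER and 8.05 in HPB-ALL, and at most 6.31 in the other lines. IGLL1, IGLL3P and IGLC1 are closely similar in part of their sequence, and the probe sets of IGLL3P, IGLC1 and GUSBP11 carry the suffix x, which marks probes that may bind several transcripts, so their values are uncertain as measures of separate genes. VPREB1, also on chromosome 22, was not among these genes.

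**Figure D5:**
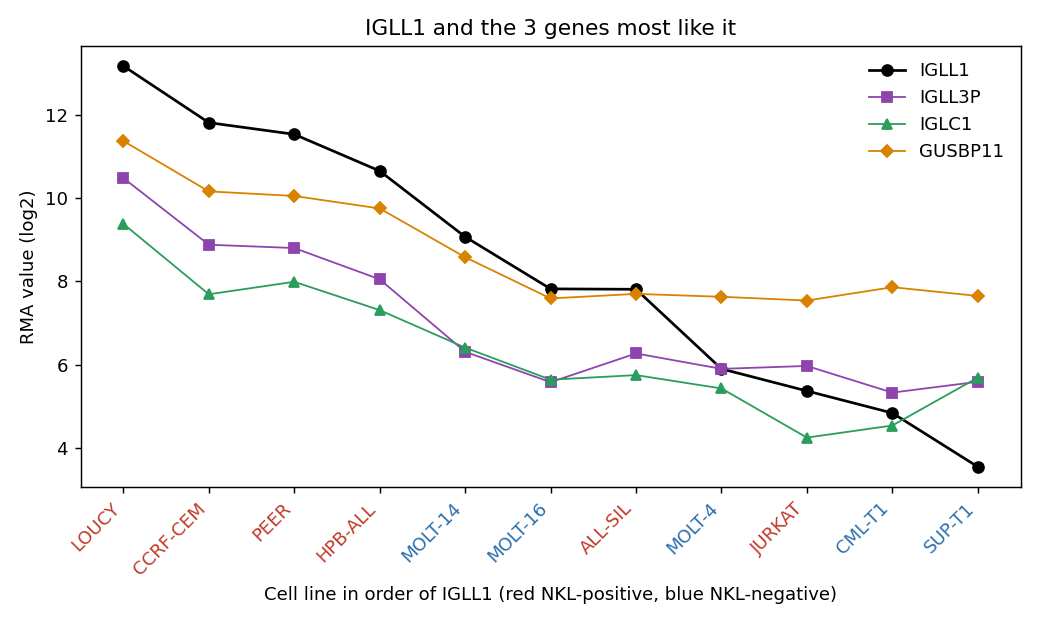
RMA values (log2) of IGLL1 and of IGLL3P, IGLC1 and GUSBP11 in the 11 lines, ordered by IGLL1, with NKL-positive lines named in red and NKL-negative lines in blue. All 4 genes are highest in LOUCY and share CCRF-CEM, PEER and HPB-ALL as the next lines, while GUSBP11 stays near its lowest value, 7.54, in the lines with low IGLL1.

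The genes most like EBF1 were NAV1 (r = 0.94), TMEM273 (r = 0.92) and the homeobox gene HOXC6 (r = 0.92), with r between 0.88 and 0.90 without LOUCY. CD79A went with JCAD (r = 0.91), SNCAIP (r = 0.90) and PDE4B (r = 0.90), a phosphodiesterase, with r between 0.81 and 0.83 without CML-T1. EBF1 and CD79A both stood out in LOUCY and CML-T1. Only LOUCY was left out for EBF1 and only CML-T1 for CD79A, and r without both lines was not computed. CD79B went with SERPINB1 (r = 0.93), PPP1CB (r = 0.85) and AHNAK (r = 0.84), which gave r = 0.94, 0.78 and 0.82 without LOUCY. VPREB1 went with AOC1 (r = 0.97), RSPH1 (r = 0.96) and PLD4 (r = 0.95), which dropped to r = 0.77, 0.75 and 0.64 without LOUCY. CD72 went with TMEM120A (r = 0.94), ELL2 (r = 0.94) and MXI1 (r = 0.90), with r between 0.88 and 0.89 without HPB-ALL. MS4A1 went with P2RY10 (r = 0.97), LINC02806 (r = 0.97) and ZNF311 (r = 0.97) over 11 lines. Without CML-T1 these were r = 0.95, 0.92 and 0.91, and over the 8 lines with poly-A controls they were r = 0.70, 0.27 and -0.06. These correlations describe 11 arrays and were chosen as the highest of all genes compared.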

How the data were processed

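RNA of 11 T-ALL cell lines, 1 array per line, was measured on HG U133 Plus 2.0 arrays. Per the labels and methods, the authors processed the arrays by RMA, and the deposited log2 values are not centred on a mean, carry 2 decimals and were used as given. The number of arrays limits the precision. After removal of 62 control probe sets 54613 remained, of which 41091 had 1 gene symbol in the platform annotation, 1801 several and 11721 none; 41042 of the former had a RefSeq symbol. Groups were taken from the labels, with JURKAT left out of the 5 against 5 comparison as in the study. Differences were tested with limma 3.58.1 in R 4.3.3, without covariates, with Benjamini-Hochberg adjustment over all probe sets at 0.05. With 1 array per line, p-values measure the spread between lines. On simulated data of the same size, 65 of 100 probe sets changed by 2 and 92 of 100 changed by 4 were called, with 10 false calls. The noise was normal, and the changed probe sets were drawn at random from all. These shares therefore do not give the chance of a call for a B-lineage gene, whose spread may differ. The B-lineage genes, the 9 further lists and the use of the poly-A controls were chosen with earlier results of these data known. Of each list the genes that stood out and the 4 of smallest p could be named, and for each B-lineage gene that stood out the 3 genes with the highest r. Among these named genes the text gives a choice. Alternatives were all 11 lines, each line left out, a term for poly-A controls, lines with controls alone, median centring, quantile normalization, a filter, a floor, array weights, an intensity trend, averaging the probe sets of a gene, and other gaps and levels for standing out. Promoter windows came from RefSeq (GRCh38.p14).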

Additional observations from a re-analysis of the deposited data

Results flagged for a closer look

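Within the 6 NKL-positive lines, 3 values lay far from the other lines by Dixon's test at the 95% level, over 18 groups of lines and genes, where chance gives about 1 in 20. VPREB1 in LOUCY was 10.95 against 3.85 in the next line. CD79A in LOUCY was 9.25 against 7.45 in the next line. MS4A1 in HPB-ALL was 4.54 against 3.71 in the next line, and HPB-ALL is the NKL-positive line whose poly-A controls read at background. The value lay below the array median of HPB-ALL, 4.63. In another probe set of MS4A1 HPB-ALL was also the highest NKL-positive line, at 3.65. In the remaining ones it was not, with 3.71 against 3.85 in ALL-SIL and 3.11 against 3.26 in CCRF-CEM.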

How the results depend on the processing

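None of the 9 B-lineage genes passed the adjusted threshold of limma under any alternative, with lowest adjusted p of 0.170 for CD79B and 0.46 for IGLL1. The number of probe sets called was 5 in the comparison reported. It was 0 with all 11 lines and 3 with a term for poly-A controls. In the lines with controls alone, and with a floor at the 25th percentile, it was also 3. Without 1 line it ran from 3 to 13 (13 without LOUCY, 9 without MOLT-14, 3 without HPB-ALL, PEER or CML-T1). With the mean over probe sets, 2 of 19775 genes were called, a count of genes and not of probe sets. IGLL1 ran from 3.82 to 5.55 and CD79B from 0.64, with the mean over probe sets, to 2.77. Of 176 values for the 9 genes under alternatives, 10 changed sign, in 6 genes. Without 1 line the difference of CD79A ran from -0.30 to 0.86 (below 0 without LOUCY, MOLT-4, MOLT-16 or SUP-T1), that of EBF1 from -1.54 to 0.18 (above 0 without CML-T1) and that of VPREB1 from -0.74 to 1.22 (below 0 without LOUCY). In the lines with controls alone it was 0.96 for CD79A, 0.062 for MS4A1, 0.60 for EBF1, -0.069 for PAX5, -0.063 for SPIB and 0.078 for BACH2. With the floor BLNK gave -0.008, and with the mean over probe sets SOX4 gave 0.041. The cause was not tested. The 13 pairs that stood out became 24 at a gap of 1 and 9 at a gap of 3, and ran from 11 to 13 under the other alternatives. Over the 8 lines with poly-A controls, an alternative chosen after seeing the data, 12 pairs stood out, which added CD79B in ALL-SIL and CCRF-CEM, CD72 in CCRF-CEM and EBF1 in JURKAT and lack HPB-ALL and CML-T1. No paired analysis was possible because no line belongs to both groups.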
